A study of Homo sapiens with 9 samples.

Results

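DLX1, DLX2, DLX5, DLX6, GAD1, MEF2A, MEF2C and MEF2D were examined in U251, an established human glioblastoma cell line, after knockdown of the RNA-binding protein PTBP1. These 8 genes were taken by symbol from an expression table of 22295 entries, of which 19932 carry a gene symbol and 2363 are loci assembled from the reads. They were chosen on these same measurements, because DLX1, DLX2 and MEF2C are higher at day 7 while DLX5, DLX6 and GAD1 are not. Their day 7 values are therefore given below as a description, with no test.

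The study infected U251 cells with a lentivirus that carries a short hairpin RNA against PTBP1 (sh-Ptbp1) or against luciferase (sh-Luci), and placed them in neuronal induction medium with N2, B27, forskolin and dorsomorphin from 2 days after infection. RNA was sequenced from 9 libraries, 3 of each group. The groups are sh-Luci-3d, the control at day 3 of infection, sh-Ptbp1-3d, the knockdown at day 3, and the day 7 knockdown, sh-Ptbp1-7d. All groups share the cell line and the medium, and no sh-Luci library of day 7 was analysed here, so knockdown, days in culture and days in medium cannot be told apart at day 7. Nothing in the labels says that libraries of a group came from separate cultures, so p-values measure only the spread between these libraries, which may be technical.

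DLX genes encode homeodomain transcription factors that lie in the genome as facing pairs, and in the ventral forebrain they guide the making of inhibitory neurons. DLX1 and DLX2 act early in those progenitors, DLX5 and DLX6 act later, and GAD1 encodes an enzyme that makes the inhibitory transmitter GABA from glutamate. MEF2 factors are MADS-box transcription factors that switch on muscle and neuronal genes in answer to calcium and kinase signals, and their activity is set by cofactors as well as by their amount.

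Position on GRCh38 (GENCODE v29) puts DLX1 on chromosome 2 from 172084740 to 172089677 on the forward strand, with DLX2 9.762 kb away on the opposite strand from 172099439 to 172102900. The other pair lies on chromosome 7, with DLX6 from 97005548 to 97011039 on the forward strand and DLX5 9.353 kb away on the opposite strand from 97020392 to 97024950. GAD1 is also on chromosome 2, from 170813213 to 170861151. MEF2A lies on chromosome 15 from 99565417 to 99716466, MEF2C on chromosome 5 from 88717117 to 88904257 and MEF2D on chromosome 1 from 156463727 to 156500828.

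The start-site sequences of these genes were read from RefSeq (GRCh38.p14), as windows of 250 bases before a transcript start and 50 after it. Windows were found for 7 of the 8 genes, and DLX5 has none in the table used. MEF2A has 3 windows, MEF2C has 7 and the other genes have 1 each. Both strands were searched for TAATTA, a core that homeodomain proteins bind, for CTANNNNTAG, the general form of the MEF2 site, where N is any base, for TGACGTCA, the cyclic AMP response element, and for its core TGACG, which is contained in TGACGTCA. Over all 35116 windows of the table, 4.84% hold TAATTA, 2.73% hold CTANNNNTAG, 1.85% hold TGACGTCA and 24.6% hold TGACG. Each sequence below runs 5′ to 3′ along the gene, and capitals mark the bases of a match. DLX1 and DLX2 are shown as the pair that is higher at day 7, and DLX6 as the gene of the other pair that has a window.
DLX1, chr2:172085257-172085556, forward strand: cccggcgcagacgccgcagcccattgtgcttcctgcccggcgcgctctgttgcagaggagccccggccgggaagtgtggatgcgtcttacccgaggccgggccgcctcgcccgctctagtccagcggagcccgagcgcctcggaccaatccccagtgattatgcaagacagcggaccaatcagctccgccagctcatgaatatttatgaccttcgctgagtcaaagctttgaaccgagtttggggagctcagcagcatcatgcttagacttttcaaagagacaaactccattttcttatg
DLX2, chr2:172102851-172103150, reverse strand: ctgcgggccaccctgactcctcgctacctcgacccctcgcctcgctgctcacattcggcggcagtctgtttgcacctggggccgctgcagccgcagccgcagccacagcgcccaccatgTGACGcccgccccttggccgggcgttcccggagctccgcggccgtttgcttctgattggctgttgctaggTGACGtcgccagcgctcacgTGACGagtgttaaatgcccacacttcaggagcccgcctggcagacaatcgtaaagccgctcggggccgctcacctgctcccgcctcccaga
DLX6, chr7:97005303-97005602, forward strand: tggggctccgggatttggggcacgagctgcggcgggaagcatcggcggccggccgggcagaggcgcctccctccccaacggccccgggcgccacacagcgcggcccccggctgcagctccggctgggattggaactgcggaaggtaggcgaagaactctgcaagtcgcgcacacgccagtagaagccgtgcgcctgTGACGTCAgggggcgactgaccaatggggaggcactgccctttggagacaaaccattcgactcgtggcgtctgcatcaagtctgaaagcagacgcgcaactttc
The DLX1 window, which lies inside the annotated gene, held none of the 4 motifs. DLX2 held 3 matches to TGACG, which begin 131, 61 and 41 bases before the start. DLX6 held a single TGACGTCA that begins 54 bases before the start, and its 2 matches to TGACG, on opposite strands, both lie within it. These are matches of letters only.

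MEF2A and MEF2C are shown for the motifs of the factor families under study. MEF2A has a MEF2 site in the second of its 3 windows, and MEF2C has a homeodomain core in the second of its 7 windows, at a transcript start inside the annotated gene.
MEF2A, chr15:99565734-99566033, forward strand: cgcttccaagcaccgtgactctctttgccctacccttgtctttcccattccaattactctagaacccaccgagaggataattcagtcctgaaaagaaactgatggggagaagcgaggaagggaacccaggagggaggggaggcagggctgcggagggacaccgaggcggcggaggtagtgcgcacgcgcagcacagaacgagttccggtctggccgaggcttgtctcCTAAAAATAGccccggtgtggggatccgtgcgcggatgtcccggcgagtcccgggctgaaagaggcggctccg
MEF2C, chr5:88785462-88785761, reverse strand: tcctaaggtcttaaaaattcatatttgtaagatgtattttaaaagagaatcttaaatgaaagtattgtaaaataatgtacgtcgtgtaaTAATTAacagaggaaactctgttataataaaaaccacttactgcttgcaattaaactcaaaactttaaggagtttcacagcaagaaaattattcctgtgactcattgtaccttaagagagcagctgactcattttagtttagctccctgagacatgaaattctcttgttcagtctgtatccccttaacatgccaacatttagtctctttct
The MEF2 site of MEF2A begins 23 bases before that start, and the homeodomain core of MEF2C begins 161 bases before its start. Beyond these, a TGACG lies 16 bases after the start in another MEF2A window and 8 bases before the start in another MEF2C window. The windows of GAD1 and MEF2D held none of the 4 motifs. Those windows and that of DLX1 lie inside the annotated genes, so the sequence at the annotated gene starts was not searched for them. The MEF2A window printed here also lies inside its annotated gene.

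The values are FPKM, which divide the sequenced fragments of a gene by its transcript length and by the total of the library, so levels can be set side by side between genes. The FPKM of a library sum to between 367412 and 404922, with the 3 lowest sums at day 7, and values under other scalings are given where they change a direction. PTBP1, the targeted gene, was at 115.7 ± 7.58 FPKM in the control, 63.9 ± 2.67 at day 3 of knockdown and 50.5 ± 0.645 at day 7 (SD, n = 3 in every group here and below). At day 3 it was at 55.2% of the control level and fell by 0.85 on the log2(FPKM + 0.1) scale (limma adjusted p = 0.00314). That is short of the change of more than 2 times that calls below ask for, so PTBP1 itself was not called at day 3. The sequencing depth behind these values is unknown, and 0.1 is the smallest two-sided p that an exact permutation test could give here. The glial label was checked against 10 astroglial and glioma genes, whose summed level was 4471 to 4596 FPKM in sh-Luci-3d and 1400 to 1520 at day 7. Vimentin (VIM) made up most of it. In sh-Luci-3d CD44 was at 182 FPKM, SOX2 at 106, NES at 40.5, SOX9 at 38.3, EGFR at 10.2, SLC1A3 at 1.99 and S100B at 0.121. The mature astrocyte markers GFAP and AQP4 stood at 0.347 and 0.0382 FPKM there. One library stands apart. Replicate 3 of sh-Ptbp1-3d carries 12 excitatory neuron genes at a summed 14.9 FPKM, against 1.84 to 3.66 in the other 8 libraries, with NEUROD6 at 6.03 FPKM there and listed at 0 in all the others. For the 8 genes, log2 differences in which sh-Ptbp1-3d takes part are given with and without that library.

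All 8 genes were already expressed in the control cells. In sh-Luci-3d the order from high to low was MEF2A, MEF2D, GAD1, DLX6, DLX5, MEF2C, DLX1 and DLX2. The libraries of MEF2A and MEF2D overlapped, as did each neighbour from DLX6 down to DLX1, while GAD1 lay below MEF2D and above DLX6 and DLX2 lay below DLX1 with no overlap. The lowest of the 8 genes, DLX2, was at 0.607 FPKM and above 43.9% of the entries of the table, and the highest, MEF2A, at 9.97 FPKM and above 74.5%. The filter on low values, a mean of at least 0.1 FPKM, left 15551 genes, and all 8 genes passed it with every library above it.

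**Figure D1:**
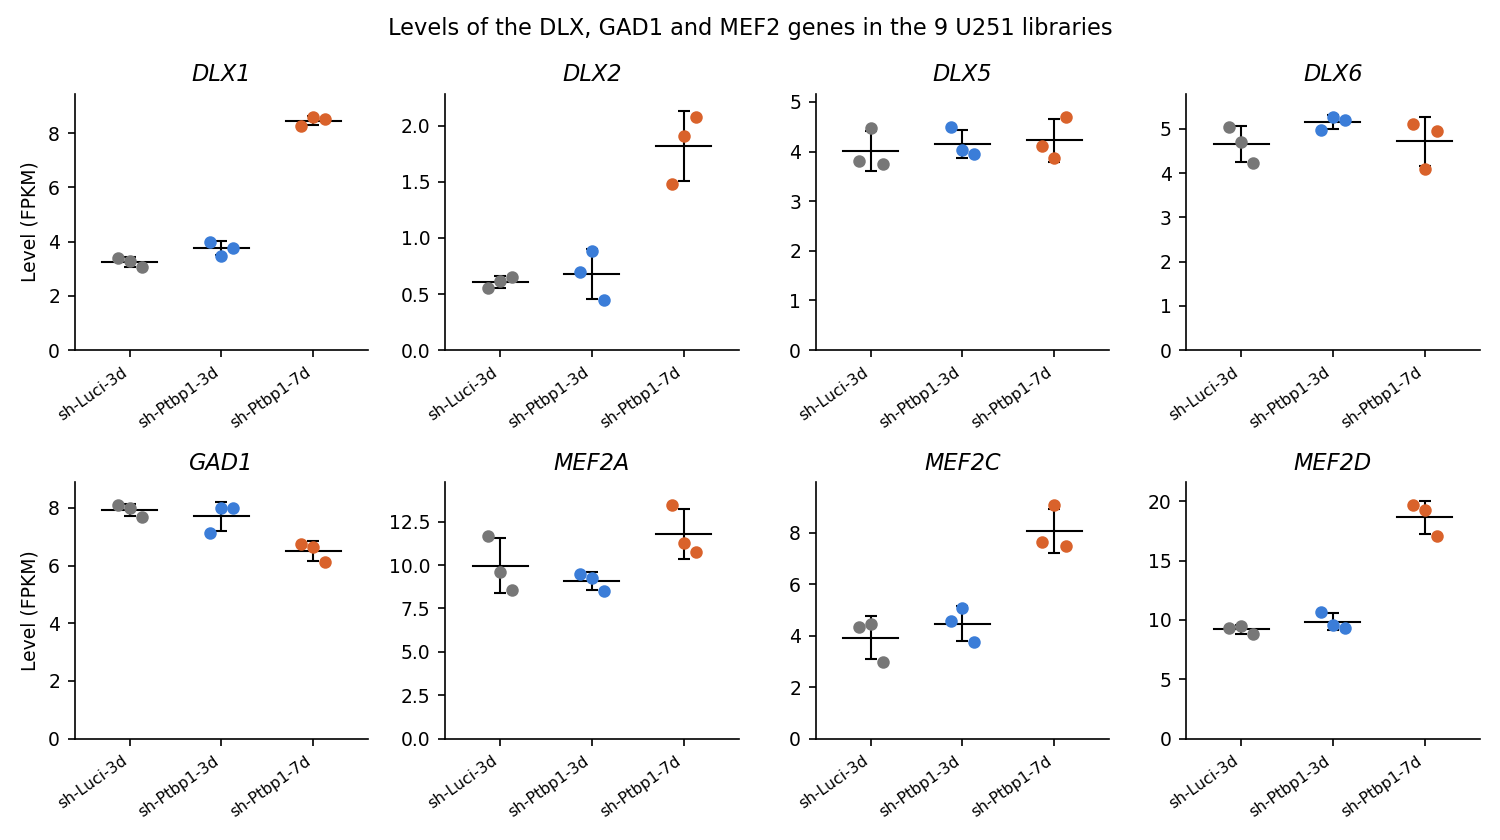
Level in FPKM (vertical axis, from 0) of each of the 8 genes in the 3 libraries of each group. Points are libraries, the horizontal bar is the group mean and the whisker is 1 SD. DLX1, DLX2, MEF2C and MEF2D have all 3 sh-Ptbp1-7d libraries above the other 6, DLX5 and DLX6 have overlapping groups, and GAD1 has its 3 lowest libraries in sh-Ptbp1-7d.

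The day 3 comparison, of sh-Ptbp1-3d with its control at the same day and in the same medium, was tested. It is not the contrast that chose the genes, but its libraries were the baseline of that choice. None of the 8 passed the threshold, a limma FDR below 0.05 and a change of more than 2 times, in a comparison where 0.0129% of the 15551 genes tested did. At these thresholds the study itself reported many more genes for this comparison than the 2 called here. Its test is not named in the sources used, so the share called is that of this fit alone. At an unadjusted p below 0.05 the count was also 0 of 8, against 1126, or 7.24%, of all genes. Knockdown and control libraries lay fully apart for 1 of the 8 genes, DLX1, and for 10.8% of all genes.

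DLX1 was at 3.41, 3.27 and 3.06 FPKM in the sh-Luci-3d libraries and at 3.998, 3.481 and 3.778 in those of sh-Ptbp1-3d. All 3 knockdown libraries lay above all 3 controls. The difference was 0.20 on the log2(FPKM + 0.1) scale (95% interval -0.02 to 0.43, limma adjusted p = 0.717), and 0.20 again without the sh-Ptbp1-3d library that stands apart.

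For the other 7 genes the groups overlapped at day 3. DLX2, the low partner of DLX1, differed by 0.10 (95% interval -0.42 to 0.62, limma adjusted p = 0.942), and by 0.33 without that library. GAD1 differed by -0.04 with an interval of -0.24 to 0.16, and by -0.07 without that library. MEF2D differed by 0.10 with an interval of -0.11 to 0.30, and by 0.13 without it. Among the intervals of the 8 genes the widest, that of DLX2, corresponds to 0.748 to 1.54 times the control level, and all 8 lie within a change of 2 in either direction. For MEF2C, the difference was 0.19 (95% interval -0.19 to 0.57, limma adjusted p = 0.837) and 0.31 without the library that stands apart. DLX5, DLX6 and MEF2A differed by 0.05, 0.14 and -0.12, and by 0.09, 0.14 and -0.08 without it.

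DLX1 had the tightest day 7 group of the DLX genes. Its sh-Ptbp1-7d libraries were at 8.27, 8.61 and 8.54 FPKM, each more than any of the 6 libraries of day 3. Among the 8 genes DLX1 was next to last by level in the control and next after MEF2D and MEF2A at day 7, where its libraries overlapped those of MEF2C. The group means were 3.25 ± 0.176, 3.75 ± 0.260 and 8.47 ± 0.181 FPKM, so that day 7 stood at 2.26 times the day 3 knockdown and 2.61 times the control. On the log2(FPKM + 0.1) scale the differences were 1.16 and 1.36, above those of 92.1% and 93.7% of all genes tested. Without the sh-Ptbp1-3d library that stands apart the first was again 1.16.

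DLX2 followed at a lower level and with a wider spread. It was at 0.554, 0.613 and 0.655 FPKM in sh-Luci-3d, at 0.700, 0.886 and 0.450 in sh-Ptbp1-3d and at 1.48, 1.91 and 2.08 in sh-Ptbp1-7d. The day 7 libraries all lay above those of day 3, and the lowest value was that of the library with the excitatory neuron genes. The day 7 mean of 1.82 ± 0.310 FPKM was 2.69 times that of sh-Ptbp1-3d and 3.00 times that of sh-Luci-3d. On the log2(FPKM + 0.1) scale the difference from sh-Ptbp1-3d was 1.33, and 1.10 without that library. It was 0.75 with a pseudocount of 1, since DLX2 is low enough for the added constant to weigh on it.

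DLX5 and DLX6, the later pair, did not separate the groups. DLX5 was at 3.81, 4.48 and 3.75 FPKM in sh-Luci-3d, at 4.48, 4.03 and 3.95 in sh-Ptbp1-3d and at 4.12, 3.87 and 4.70 in sh-Ptbp1-7d. DLX6 was at 5.04, 4.71 and 4.24 FPKM, at 4.98, 5.27 and 5.21 and at 5.11, 4.09 and 4.95 in the same groups. For both genes every group overlapped every other. Against sh-Ptbp1-3d the day 7 difference of DLX5 was 0.02, or -0.01 without the library that stands apart, and -0.12 after quantile normalization. That of DLX6 was -0.13, or -0.12 without the library, and stayed below 0 in the other scalings, from -0.03 with TPM to -0.27 after quantile normalization. Against sh-Luci-3d the differences were 0.07 and 0.01, and after quantile normalization -0.08 and -0.14. No direction is given where the sign turned with the scaling, which was for DLX5 in both comparisons and for DLX6 against sh-Luci-3d.

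Within a library the balance between the pairs was therefore different at day 7. The ratio of DLX1 to DLX5 was 0.814 ± 0.0826 in the control, 0.905 ± 0.0477 at day 3 of knockdown and 2.02 ± 0.205 at day 7, with the lowest day 7 library at 1.82 and the highest of the other 6 at 0.957. Ratios inside a pair showed no such step. DLX1 was 5.39 ± 0.744, 6.01 ± 2.25 and 4.74 ± 0.770 times DLX2 in the 3 groups, where the library that stands apart was at 8.40 and the other sh-Ptbp1-3d libraries at 5.71 and 3.93, and DLX6 was 1.17 ± 0.140, 1.25 ± 0.118 and 1.12 ± 0.108 times DLX5. A ratio within a library does not change with the scaling of that library.

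The summed level of the 4 DLX genes was 12.5 ± 0.730 FPKM in the control, 13.7 ± 0.396 at day 3 of knockdown and 19.2 ± 0.924 at day 7. DLX1 supplied 25.9% ± 0.817, 27.3% ± 1.59 and 44.1% ± 2.28 of it. In sh-Luci-3d the largest share was that of DLX6, at 37.2% ± 1.86, and in sh-Ptbp1-7d DLX6 supplied 24.5% ± 2.40.

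**Figure D2:**
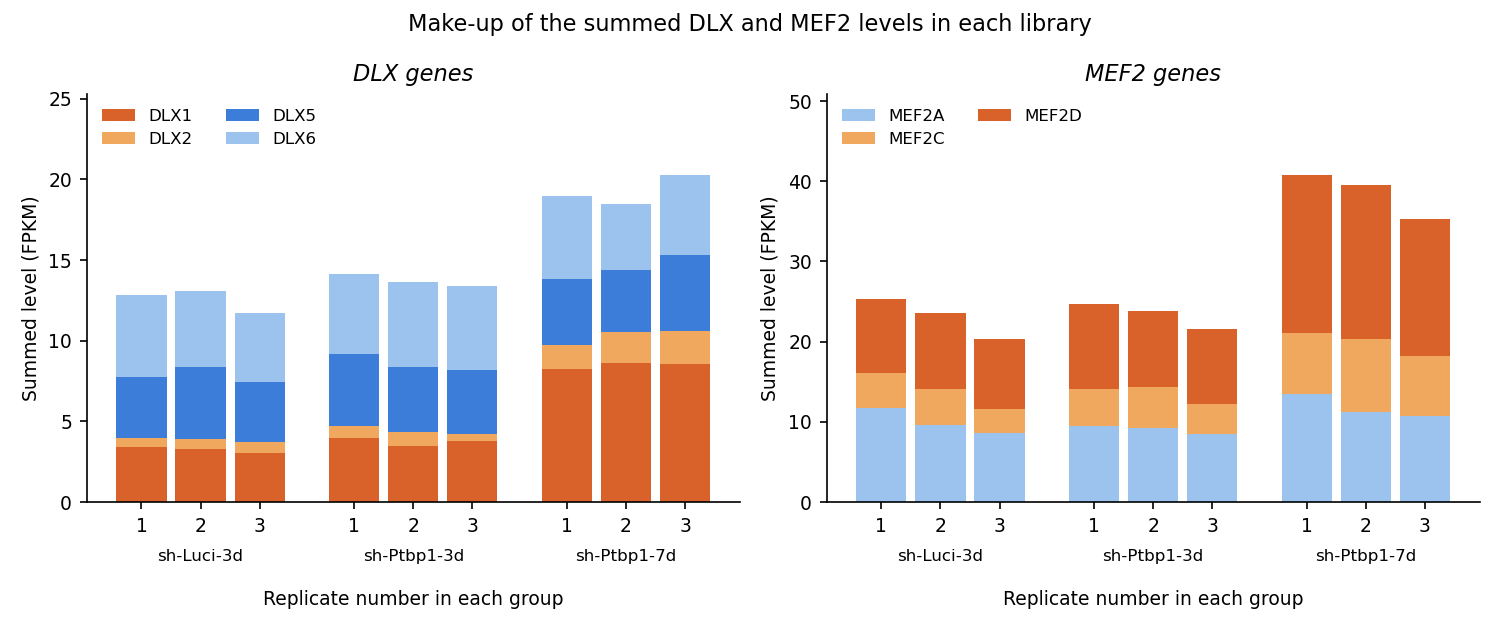
Summed level in FPKM (vertical axis, from 0) of the 4 DLX genes (left) and of MEF2A, MEF2C and MEF2D (right) in each library, with the replicate number of each group along the horizontal axis and each gene as a coloured segment. The DLX1 and DLX2 segments are taller in the 3 sh-Ptbp1-7d libraries and those of DLX5 and DLX6 are not, while MEF2C and MEF2D supply most of the added MEF2 level.

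GAD1 did not follow DLX1 and DLX2. It was at 8.089, 7.996 and 7.684 FPKM in sh-Luci-3d, at 7.134, 7.981 and 8.003 in sh-Ptbp1-3d and at 6.76, 6.65 and 6.12 in sh-Ptbp1-7d. The day 7 libraries are the 3 lowest. Their mean of 6.51 ± 0.343 FPKM was 82.2% of that of sh-Luci-3d and 84.5% of that of sh-Ptbp1-3d, differences of -0.28 and -0.24 on the log2 scale. The second was -0.21 without the library that stands apart. This direction was kept by TPM, median-ratio and quantile scaling, from -0.20 to -0.40 against sh-Luci-3d. FPKM of bulk cells cannot tell fewer cells that express a gene from less RNA in each cell, for GAD1 or any of the others.

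MEF2D was the highest of the 8 genes at day 7. It was at 9.30, 9.52 and 8.81 FPKM in sh-Luci-3d, at 10.7, 9.55 and 9.34 in sh-Ptbp1-3d and at 19.7, 19.2 and 17.0 in sh-Ptbp1-7d. The day 7 libraries lay above all others with a wide gap. Its mean of 18.6 ± 1.41 FPKM was 1.89 times that of sh-Ptbp1-3d and 2.02 times that of sh-Luci-3d, differences of 0.91 and 1.01 on the log2 scale. The first was 0.87 without the library that stands apart.

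MEF2C, the member most tied to neuronal and vascular development, was lower than MEF2D throughout. It was at 4.34, 4.47 and 2.96 FPKM in sh-Luci-3d, at 4.55, 5.08 and 3.73 in sh-Ptbp1-3d and at 7.65, 9.06 and 7.48 in sh-Ptbp1-7d. All day 7 libraries lay above all day 3 libraries. The day 7 mean of 8.06 ± 0.866 FPKM was 1.81 times that of sh-Ptbp1-3d and 2.06 times that of sh-Luci-3d. The log2 difference from sh-Ptbp1-3d was 0.85, and 0.73 without the library that stands apart.

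MEF2A was the least separated of the 3 MEF2 genes. It was at 11.7, 9.62 and 8.58 FPKM in sh-Luci-3d, at 9.499, 9.229 and 8.502 in sh-Ptbp1-3d and at 13.4, 11.3 and 10.7 in sh-Ptbp1-7d. The day 7 libraries lay above those of sh-Ptbp1-3d but overlapped those of sh-Luci-3d, whose first replicate was above 2 of them. The log2 differences were 0.37, or 0.33 without the library that stands apart, and 0.25.

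MEF2D thus stood in a changed ratio to MEF2A and in nearly the same ratio to MEF2C. MEF2D was 0.937 ± 0.124, 1.09 ± 0.0470 and 1.59 ± 0.122 times MEF2A in the control, the day 3 and the day 7 knockdown, and 2.42 ± 0.487, 2.24 ± 0.324 and 2.32 ± 0.227 times MEF2C. The share of MEF2A in the summed MEF2 level was 43.0% ± 2.80, 38.8% ± 0.523 and 30.6% ± 2.25, and the sum itself was 23.1 ± 2.53, 23.4 ± 1.63 and 38.5 ± 2.90 FPKM. FPKM per gene carries no information on which exons the MEF2 transcripts hold.

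Counted together, 6 of the 8 genes (all but DLX5 and DLX6) had day 7 libraries fully apart from those of sh-Ptbp1-3d, as had 62.3% of all genes tested. Against sh-Luci-3d it was 5 of the 8, without MEF2A, and 55.9% of all genes. Because these contrasts chose the genes, nothing is read from the counts. Comparisons with sh-Ptbp1-7d share its libraries and are set side by side only. The median gene differed by 0.09 against sh-Ptbp1-3d and by 0.10 against sh-Luci-3d, quantile normalization moved these medians by -0.10 and -0.11, and TPM scaling moved them by 0.10 and 0.08.

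**Figure D3:**
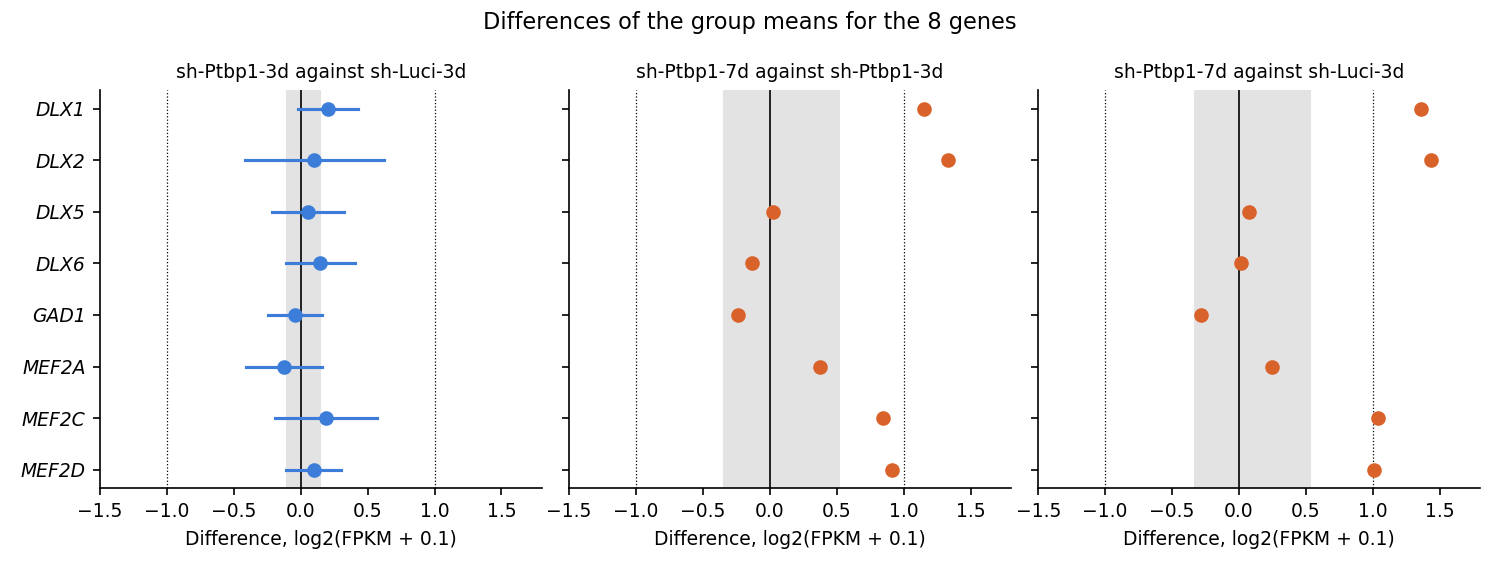
Difference of group means on the log2(FPKM + 0.1) scale (horizontal axis) for the 8 genes in the 3 comparisons. Bars in the left panel are 95% intervals from limma, day 7 points are a description with no test, the grey band spans the middle 50% of all genes tested and dotted lines mark a fold change of 2. All day 3 intervals include 0, and at day 7 DLX1, DLX2, MEF2C and MEF2D lie right of the band.

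Profiles over the 9 libraries, each centred on its own sh-Luci-3d mean, were compared by the root mean square difference on the log2 scale. Among the 8 genes the closest pair was DLX5 with DLX6 at 0.14, followed by MEF2C with MEF2D at 0.18. DLX1 was as near to MEF2D, at 0.22, and MEF2C, at 0.26, as to its neighbour DLX2, at 0.27, and GAD1 was farthest from DLX2, at 1.03. Such closeness also reflects the noise of low genes, since DLX2 has the widest spread.

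Of 11332 other genes that averaged 1 FPKM or more, the 3 nearest to DLX1 were HOXD3, a homeobox gene, at 0.08, SH3BP5, a kinase-binding adaptor gene, at 0.09 and EPN2, an endocytic adaptor gene, at 0.10. HOXD3 stood at 4.92 ± 0.270, 5.56 ± 0.601 and 12.8 ± 0.740 FPKM in the 3 groups. The nearest to DLX2 were FAXDC2 at 0.11 and the zinc finger genes ZNF547 and ZNF418 at 0.16 and 0.17. For MEF2C they were EPM2AIP1 at 0.10, ZNF420 at 0.13 and WDFY1 at 0.14. These genes were picked for their likeness, so their own day 7 differences are not tested here.

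Of the 4 nearest protein-coding neighbours of DLX1 and DLX2, 0 were called by limma for day 7 against day 3 of knockdown, with 2 at an unadjusted p below 0.05, a mark that 56.3% of all genes met in this comparison. The nearest protein-coding gene, METAP1D, ends 2.31 kb from DLX1 and was at 2.26 ± 0.0620 FPKM in sh-Ptbp1-3d and 2.82 ± 0.437 at day 7 (log2 difference 0.29, limma adjusted p = 0.135). SLC25A12, a mitochondrial carrier gene 84.881 kb from DLX1, differed by 0.82 (limma adjusted p = 5.94e-05), below the fold threshold. On the far side of DLX2, the integrin gene ITGA6 differed by -0.03 and the pyruvate dehydrogenase kinase gene PDK1 by -0.83 (limma adjusted p = 0.871 and 0.00286).

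Around DLX5 and DLX6, the proteasome gene SEM1 and SDHAF3 differed by -0.37 and -0.28 (limma adjusted p = 0.0864 and 0.143). SLC25A13, 683.401 kb from DLX6, differed by -0.67 (limma adjusted p = 0.000325), below the fold threshold, and TAC1, on the side of DLX5, was listed at 0 throughout. Over the 2 nearest protein-coding genes on each side of every locus, 17 of the 23 genes in the table could be tested for day 7 against day 3 of knockdown, and 1 passed an FDR below 0.01 with a change of more than 2 times. That share of 5.88% compares with 14.2% of all genes. Another 6 passed the FDR but not the fold threshold, beside 21.6% of all genes. The called gene is IQGAP3, a scaffold gene of dividing cells 24.577 kb from MEF2D, which fell by 1.43 (limma adjusted p = 3.83e-07) while MEF2D itself was higher.

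Overlapping transcripts limit some of the values, since the sources used here do not state whether the reads kept their strand. DLX6, GAD1 and MEF2C overlap antisense genes on the other strand (DLX6-AS1 for DLX6), which have no entry in the table, and MEF2A overlaps LYSMD4, at 2.90 to 4.29 FPKM on average in the 3 groups. An assembled locus on the opposite strand begins 0.329 kb from DLX2, and its value was between 0 and 0.270 FPKM. Another, on the same strand as MEF2C, lies 32.1 kb from it and was at 34.4 to 62.8 FPKM over the 9 libraries, several times the MEF2C level.

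Genes around the 8 were described through 11 lists with 129 genes, of which 67 could be tested. Of the 67, NEUROD6, NEUROD2, TBR1 and SLC17A7 passed the filter on low values only through the library that stands apart. At day 3, knockdown against control, limma called 0 of the 67, with 5 at an unadjusted p below 0.05, beside 7.24% of all genes. For day 7 against day 3 of knockdown it called 12, or 17.9%, against 14.2% of all genes. Of these 7 were higher and 5 lower, where 8.31% of all genes were called higher and 5.9% lower. The median difference over the 67 was 0.13, beside 0.09 over all genes tested. Against sh-Luci-3d 13 were called, 19.4% against 14.6% of all genes, with 9 higher and 4 lower, where 8.93% and 5.68% of all genes were. Without the library that stands apart the first count was 11, as SP8 was lost.

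Of 8 other genes of GABA metabolism and transport, 7 averaged below 0.1 FPKM. GAD2, the other glutamate decarboxylase gene, SLC32A1, which encodes the transporter that loads GABA into vesicles, and the GABA transporter gene SLC6A12 were listed at 0 in all 9 libraries. ALDH5A1, which encodes an enzyme of GABA breakdown and is the one that could be tested, was near the level of GAD1, at 5.67 ± 0.637 FPKM in sh-Luci-3d, 7.01 ± 0.211 in sh-Ptbp1-3d and 7.11 ± 0.625 in sh-Ptbp1-7d (log2 difference of day 7 from day 3 of knockdown 0.02, limma adjusted p = 0.919). Its sh-Luci-3d libraries lay below those of both other groups, with differences of 0.31 at day 3 and 0.32 at day 7 (limma adjusted p = 0.617 and 0.0319), and limma called it in 0 of the 3 comparisons, with 2 at an unadjusted p below 0.05.

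Interneuron subtype markers were likewise low, with 2 of 15 tested. SST, PVALB, CCK, TAC1 and LAMP5, which mark classes of inhibitory neurons, were listed at 0 throughout, and the sum of the list was 1.21 to 1.56 FPKM in sh-Luci-3d and 2.43 to 2.94 in sh-Ptbp1-7d. Most of that is NDNF, a secreted factor of some cortical interneurons, which rose from 1.08 ± 0.406 FPKM in sh-Ptbp1-3d to 2.40 ± 0.379 in sh-Ptbp1-7d (log2 difference 1.14, limma adjusted p = 0.00327). Its call was lost in 6 of 19 alternatives, among them those without replicate 2 of sh-Ptbp1-3d (0.85) and without replicate 1 or 2 of sh-Ptbp1-7d (1.06 and 1.08).

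Ventral forebrain transcription factors, the usual company of DLX genes, were tested for 13 of 21 genes. For day 7 against day 3 of knockdown 4 passed, or 30.8%, beside 14.2% of all genes. PROX1, NR2F1 and SP8 rose and MAF fell. NR2F1, an orphan nuclear receptor gene of the developing cortex and ganglionic eminences, rose from 59.0 ± 0.372 to 128 ± 7.27 FPKM (log2 difference 1.12, limma adjusted p = 7.49e-07). PROX1, a homeobox gene, rose from 1.32 ± 0.159 to 3.85 ± 0.883 FPKM (1.45, limma adjusted p = 0.000175).

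MAF, a transcription factor gene of interneurons from the medial eminence, fell by 1.30 (limma adjusted p = 0.000153). It fell from a day 3 level of 2.57 ± 0.208 FPKM, above the 1.60 ± 0.285 of sh-Luci-3d (0.67, limma adjusted p = 0.473, not called). Those libraries lay fully apart, as did those of 10.8% of all genes. Against sh-Luci-3d PROX1, NR2F1 and SP8 passed again, 23.1% of the 13 beside 14.6% of all genes. MAF did not (-0.63, limma adjusted p = 0.0129). SP8, at 1.02, lost its call against sh-Ptbp1-3d in 11 of 19 alternatives, among them each that left out a knockdown library, where it ran from 0.93 to 1.07. Against sh-Luci-3d SP8 lost its call in 11 of 19 as well, 5 of them without a single library (0.85 to 1.12). PROX1 lost its call there with a pseudocount of 1. The factors that act above or beside DLX genes in the ventral forebrain, GSX1, LHX8 and ISL1, were listed at 0 in all libraries.

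Close relatives of the 8 genes were at low levels. DLX4 was at 0.778 ± 0.0556 FPKM in sh-Ptbp1-3d and 0.383 ± 0.113 in sh-Ptbp1-7d (log2 difference -0.89, limma adjusted p = 0.0105). MEF2B was at 0.240 ± 0.0857, 0.460 ± 0.115 and 1.71 ± 1.12 FPKM in the 3 groups. It passed against sh-Luci-3d (2.25, limma adjusted p = 0.00105) and not against sh-Ptbp1-3d (1.52, limma adjusted p = 0.0109), and it shares exons with the readthrough gene BORCS8-MEF2B, so its value is uncertain. Of the 2 relatives tested against sh-Ptbp1-3d limma called 0, with both at an unadjusted p below 0.05, as were 56.3% of all genes.

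MEF2 cofactors, kinases and phosphatases were expressed well, with 14 of 15 tested. Limma called 0 of the 14 in either day 7 comparison, with 8 at an unadjusted p below 0.05 against sh-Ptbp1-3d and 9 against sh-Luci-3d, beside 56.3% and 56.1% of all genes, and 6 in each passed the FDR but not the fold threshold, beside 21.6% and 21.0% of all genes. Among the highest were the class IIa histone deacetylase HDAC7, which holds MEF2 factors silent, at 20.7 ± 1.20 and 18.7 ± 1.84 FPKM at day 3 and day 7 of knockdown, and the kinase gene MAPK14. MAPK7, which encodes the kinase ERK5 that activates MEF2 factors, was at 13.5 ± 0.964 and 23.7 ± 3.09 FPKM (log2 difference 0.80, limma adjusted p = 9.57e-05). MAPK14 differed by -0.24 and the phosphatase gene PPP3R1 by 0.12 (limma adjusted p = 0.0594 and 0.318). The largest fall of the list was that of the kinase gene MAPK11, at -0.89 (limma adjusted p = 0.000716). Of the 14 genes, 7 had a difference above 0.

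MEF2 target genes known from neurons and vessels were tested for 10 of 11. Limma called 0 for day 7 against day 3 of knockdown, with 7 at an unadjusted p below 0.05 beside 56.3% of all genes, and the median difference was 0.42 beside 0.09 over all genes. JUN, an immediate early factor, differed by 0.63 and PCDH10, a protocadherin gene, by -0.65 (limma adjusted p = 0.0021 and 0.000464), both short of the fold threshold. Against sh-Luci-3d 1 of the 10 passed, or 10%, beside 14.6% of all genes. It was the vascular factor KLF2, which rose from 1.40 ± 0.148 to 3.02 ± 0.323 FPKM (1.05, limma adjusted p = 0.000391). KLF2 lost this call in 5 of 19 alternatives, among them median-ratio and quantile scaling. Without replicate 1 of sh-Luci-3d or replicate 3 of sh-Ptbp1-7d it was at 0.97 and lost it as well.

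**Figure D4:**
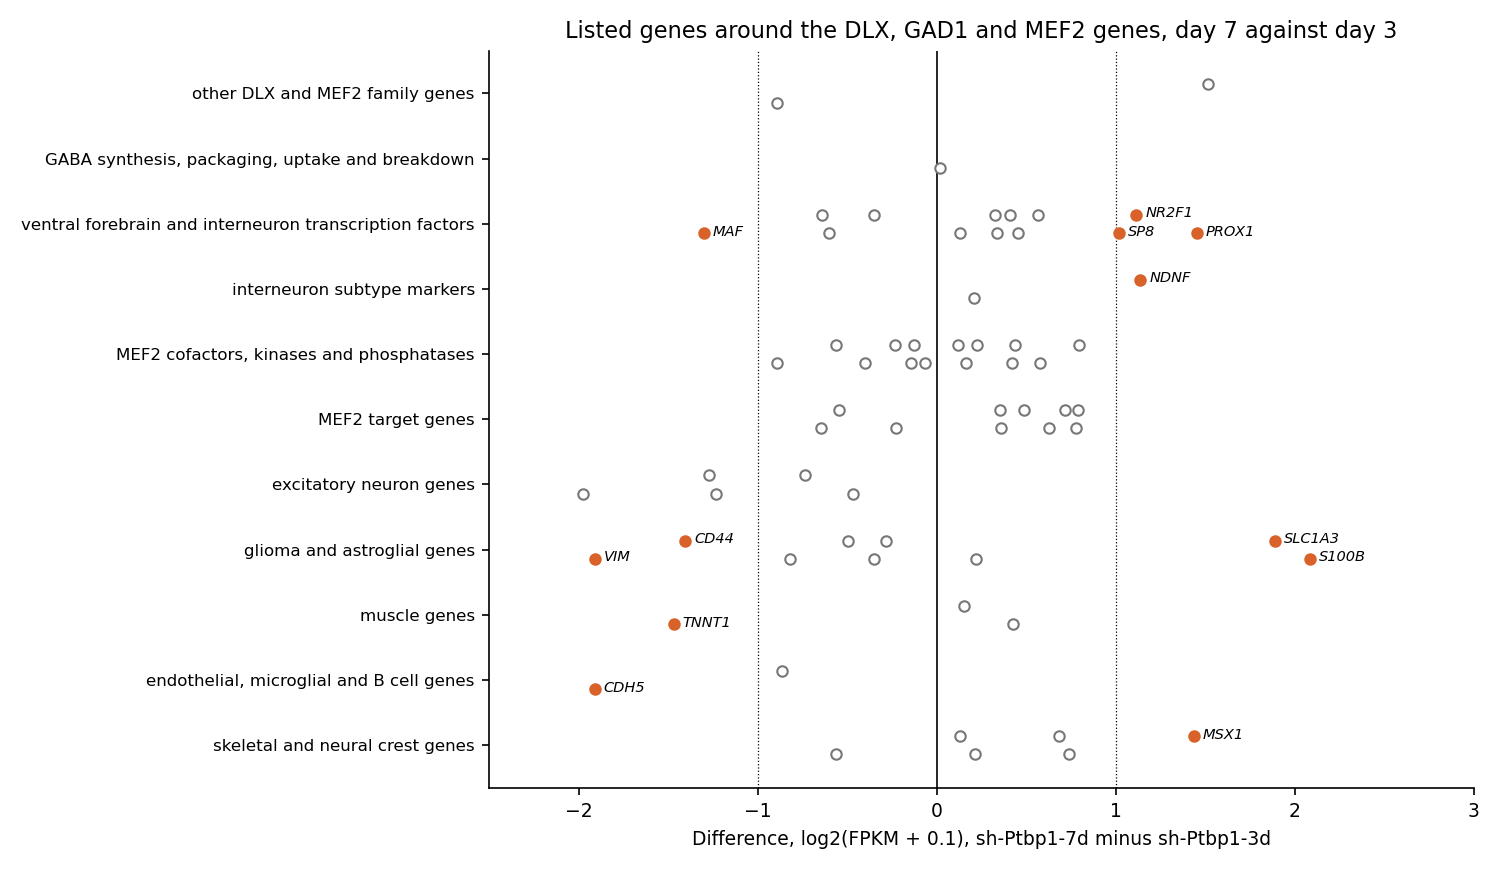
Difference of sh-Ptbp1-7d from sh-Ptbp1-3d on the log2(FPKM + 0.1) scale (horizontal axis) for the 67 listed genes that could be tested, by list. Filled and named points passed the fold threshold of 2 (dotted lines) and an FDR below 0.01, and open points did not. The 12 filled points comprise 7 on the right and 5 on the left, and the MEF2 cofactor and target lists hold open points only.

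Markers of other cells that use these factors were checked as well. Myogenic genes that MEF2 factors serve in muscle, MYOG, MYF6 and MYH7, were listed at 0, although the slow troponin gene TNNT1 was at 80.3 ± 6.72 FPKM in sh-Ptbp1-3d and fell by 1.47 in sh-Ptbp1-7d (limma adjusted p = 1.46e-05). Endothelial, microglial and B cell genes, where MEF2C is also found, summed to 0.271 to 0.939 FPKM in all libraries, with AIF1, SPI1 and MS4A1 at 0. CDH5 among them fell by 1.91, from 0.392 ± 0.191 to 0.0271 ± 0.0346 FPKM (limma adjusted p = 0.00244). Its call was lost in 5 of 19 alternatives, among them a pseudocount of 1. The others include those without replicate 1 of sh-Ptbp1-3d (-1.63) or replicate 2 of sh-Ptbp1-7d (-1.76). Skeletal and neural crest genes, which go with DLX5 and DLX6 outside the brain, included MSX1, a homeobox gene that rose from 1.59 ± 0.173 to 4.47 ± 0.457 FPKM (1.43, limma adjusted p = 5.21e-05). TFAP2A, a neural crest factor and the highest of the list, was at 38.4 ± 1.61 and 61.6 ± 2.18 FPKM (0.68, limma adjusted p = 1.43e-05), short of the fold threshold. TWIST1, a factor of mesenchyme, was at 13.1 ± 1.26 and 8.85 ± 0.939 FPKM (-0.57, limma adjusted p = 0.0380), and RUNX2, a bone factor, at 9.74 ± 0.538 and 11.3 ± 0.271 FPKM (0.21, limma adjusted p = 0.0546).

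Glial genes changed in the same comparison in which DLX1, DLX2, MEF2C and MEF2D were higher. VIM fell from 4381 ± 150.2 to 1169 ± 77.4 FPKM (log2 difference -1.91, limma adjusted p = 9.79e-08), and the hyaluronan receptor gene CD44 fell by 1.41 (limma adjusted p = 1.12e-06). SLC1A3, a glial glutamate transporter gene, rose by 1.89 and S100B by 2.08 (limma adjusted p = 9.32e-06 and 0.00202). These 4 were called among 9 genes tested, or 44.4%, beside 14.2% of all genes. The others tested were not called: SOX2 (0.22), SOX9 (-0.29), NES (-0.35), GFAP (-0.49) and EGFR (-0.82). S100B was low, at 0.115 ± 0.0577 FPKM in sh-Ptbp1-3d and 0.797 ± 0.135 in sh-Ptbp1-7d. Its call was lost in 5 of 19 alternatives, among them both other pseudocounts and that without replicate 1 of sh-Ptbp1-7d (1.98). The excitatory neuron list had 0 of 5 called by limma, but nothing is read from that count. Of those 5, NEUROD6, NEUROD2, TBR1 and SLC17A7 could be tested only because of the library that stands apart. The level of the list in sh-Ptbp1-7d, 1.84 to 2.85 FPKM in sum, overlapped the 2.44 to 3.30 in sh-Luci-3d. The part of these shifts in the values of the 8 genes was not tested.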

How the data were processed

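Expression was measured by RNA-seq in 9 U251 libraries, grouped by the labels, with 3 of sh-Luci-3d and 3 each of the knockdown at 3 and 7 days. The authors deposited FPKM per gene and library, which carry no read counts, so that the depth and the counting error of each library are unknown. The submitters' processing notes name HISAT2 and GRCh38, and the counting program and strand setting are not given in the sources used here. A deposited table of positions of assembled loci, another kind of value from the authors, served to place loci, and 49.6% of its 43315 exons equal a GENCODE v29 exon. No per-sample column was left out (0). For 15551 genes that averaged 0.1 FPKM or more, log2(FPKM + 0.1) was fitted by limma 3.58.1 (R 4.3.3) in a single model of the 9 libraries, with an intensity trend and Benjamini-Hochberg adjustment over all genes. Calls needed a change of more than 2 times and an FDR below 0.05 at day 3 or below 0.01 for day 7 against day 3, as in the study, and 0.01 was also used here against sh-Luci-3d. A fold change on this scale understates that of low genes.

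The 8 genes, the 11 lists and the rules were chosen with earlier results of these data known, and 2 of the genes first listed are not reported here and were left out of every list count. Per list at most 4 genes were to be named, the called ones with the largest difference first and otherwise the highest. Neighbours by position, assembled loci within 50 kb and the 3 nearest profiles of DLX1, DLX2 and MEF2C were also to be named. Of the neighbours and assembled loci only some are named above. NEUROD6, NEUROD2, TBR1, SLC17A7, SP8, GFAP, AQP4, SOX2, SOX9, NES, EGFR, MAPK11 and the genes listed at 0 were named after their values were seen. Alternatives were pseudocounts of 1 and 0.01, no filter and one at 1 FPKM, scaling by TPM, median ratio or quantiles, a fit of 2 groups, a fit without the trend, a block for the replicate number, the ratio of group means, and each library left out. Python 3.11.15 with matplotlib 3.10.9 made the figures.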

Additional observations from a re-analysis of the deposited data

How the results depend on the processing

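None of the 8 genes was called at day 3, knockdown against control, under any alternative run, with limma adjusted p between 0.283 and 1. Leaving out single libraries turned the sign of 3 of those small differences: it ran from -0.0903 to 0.331 for DLX2, from -0.0046 to 0.131 for DLX5 and from -0.0692 to 0.0126 for GAD1. The 12 listed genes called for day 7 against day 3 of knockdown became 7 with a pseudocount of 1 and 9 to 12 with single libraries left out. The 13 called against sh-Luci-3d became 7 with a pseudocount of 1. The called neighbour gene passed under all alternatives. Of the calls over all genes in the former comparison 58.5% were higher ones, and 49.0% after quantile normalization, and against sh-Luci-3d 61.1% and 49.3%. A pseudocount of 1 lowered those 2211 and 2271 calls to 1255 and 1269. Replicate numbers did not pair the libraries, as same-numbered libraries correlated between -0.03 and 0.05 in their deviations from group means, and with the replicate number as a block the listed genes called stayed at 12 and 13. In that block fit limma called 0 of all genes in the day 3 comparison, against 2 without it. The unknown depth limits the low genes most, DLX2 among the 8.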
